A study of Mus musculus with 6 samples.

Results

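The genes described here encode the machinery of DNA replication and of mitosis, and their transcripts were compared in leukemic pre-B cells with and without added Blnk. The list holds 55 genes, 27 of them replication genes that E2F factors drive and 28 of them genes of G2 and mitosis. Each gene was represented by the brightest array probe that is annotated to its symbol and to no other. This rule found 54 of the 55 genes among 19938 genes measured, 27 in each class, and Ccnb1 was not analysed here.

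RNA came from pre-B cells transformed by BCR-ABL1, a constitutively active fusion kinase found in Philadelphia-positive leukemia, and was measured on 6 Affymetrix arrays. Every sample is labelled as a Blnk knockout on the Balb/c strain, from mice 4 weeks old, and every sample carries BCR-ABL1. In the control group, 3 samples were transduced with pMIG, a retroviral vector that marks cells with GFP, and in the other group 3 samples were transduced with Blnk, also called Slp65, an adaptor of the pre-B cell receptor. Cells positive for GFP were sorted 5 days after transduction. Whether the 3 samples of each group are separate cultures or mice is not stated in the labels, so the spread behind the p-values may be technical.

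A dividing cell makes these transcripts in a fixed order. Late in G1, cyclin-dependent kinases release E2F factors, which switch on the genes for origin licensing, the replicative helicase and nucleotide synthesis; later, FOXM1 and its partners switch on cyclin B, the mitotic kinases and the spindle proteins, and in resting cells the DREAM complex holds both sets down. Large pre-B cells cycle fast under IL-7 receptor signalling, and in normal development signalling from the pre-B cell receptor, through BLNK, accompanies the exit from cycle into the small resting stage. The comparison asks whether transcripts of cycling cells were lower 5 days after Blnk was added. In RNA from bulk samples, fewer cycling cells and less of the transcript per cycling cell cannot be told apart.

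Array signal here is an intensity on a linear scale, and the median intensity was between 67 and 70 on the 6 arrays. Blnk itself was measured at 972, 926 and 1013 in the pMIG samples and at 2714, 3342 and 3022 in the Blnk samples. It rose 3.11-fold (log2 change 1.64, SE 0.0914; limma adjusted p = 0.000101), and Blnk sample 1 was the lowest of the 3 Blnk samples. Which part of Blnk the probe reads was not checked, so its level in the pMIG samples says nothing about the knockout. The pre-B markers were bright, with mean intensities of 1418 to 9853 for the 7 measured. By limma Cd79a rose (log2 0.31, adjusted p = 0.0468) and Vpreb1 fell (log2 -0.68, adjusted p = 0.00976). That is 28.6% of the 7, against 3.61% of all genes, and 2 of the 7 had a positive and 5 a negative log2 change. The sum of the 7 was 29583 to 30488 in pMIG and 28913 to 30272 in Blnk samples. Igll1 was the brightest of them, and the sum does not show these opposite changes. Summed over a list, myeloid markers (8 of 8 measured) reached 247 to 262 in pMIG and 246 to 271 in Blnk samples, and the 3 measured of 6 erythroid and megakaryocyte markers reached 107 to 135 and 118 to 133. The 8 T and NK cell markers summed to 1733 to 1861 and to 2494 to 3027, and the 6 stromal and endothelial markers to 807 to 858 and 1048 to 1137. Cd2 and Pecam1, both also made by B-lineage cells, were the brightest members of these last lists and the 1 gene of each that rose by limma (Cd2 by log2 0.73, adjusted p = 0.00718; Pecam1 by log2 0.64, adjusted p = 0.00339), and none fell. No myeloid, erythroid or megakaryocyte marker passed the threshold, and no marker was at 0. The part of these markers in the results below was not tested.

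Replication and mitosis transcripts differed little between the groups. Of the 54 genes, 1 rose and 0 fell by limma at an adjusted p under 0.05, which is 1.85%, against 3.61% of all 19938 genes. The gene that rose was Nek2, a centrosomal kinase of mitotic entry. The 54 genes were brighter than most, with a median intensity of 888 against 77.9 over all genes. With dim genes left out, 1228 of 11963 genes passed, and of the 54 only Nek2, higher, and Cdt1, lower. The median log2 change was -0.04 over the 27 replication genes and -0.03 over the 27 mitosis genes, against 0.00 over all genes. With quantile normalization repeated these medians were -0.10 and -0.09, with -0.03 over all genes, and with arrays centred on their medians -0.08 and -0.06, with -0.04 over all genes. Single changes ran from -0.31 for Tk1, the thymidine salvage kinase, to 0.33 for Nek2. At an unadjusted p under 0.05, 2 genes were higher (Fen1 and Nek2) and 8 lower. The lower 8 were the replication genes Tk1, Cdt1, Mcm10 and Gins2 and the mitosis genes Bub1, Ttk, Ccnb2 and Foxm1. Over all genes, 8.91% were higher and 6.32% lower at that level.

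Intervals from the fit to all 6 arrays bound these changes only against the spread among samples of a group, which may be technical. The 95% interval of the log2 change, taken gene by gene from limma and not adjusted for the number of genes, lay above a 1.5-fold fall and below a 1.5-fold rise for all 54 genes. The widest bound downward was -0.52 (Tk1) and the widest upward was 0.49 (Fen1). A fall of 1.25-fold lay outside the interval for 42 of the 54, 21 in each class. Intervals were taken in the main setting only, and other settings would move these bounds and counts. The log2 change of Tk1 ran from -0.37 (without pMIG sample 2) to -0.18 (median over all its probes) in the other settings. The groups did not overlap for 5 genes that were higher with Blnk and 11 that were lower, 29.6% of the 54, where 20.0% of all genes did not overlap (11.8% higher, 8.15% lower).

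**Figure D1:**
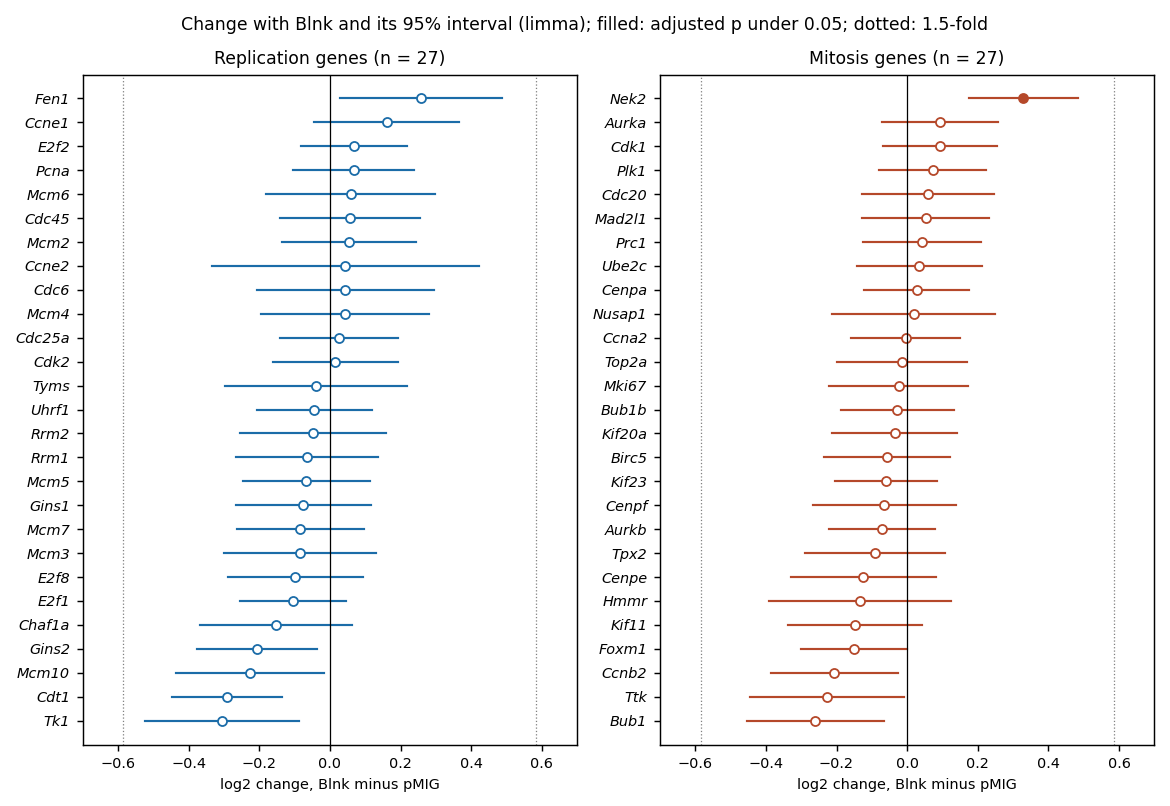
Log2 change (Blnk minus pMIG, 3 samples each) of the 27 replication genes and the 27 mitosis genes, as points with the 95% limma interval as a line; a filled point marks an adjusted p under 0.05 and dotted lines mark 1.5-fold. Nek2 carries the only filled point, and every interval ends inside the dotted lines.

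The promoters of these genes were then described. The replication genes were listed as genes that E2F factors drive, and the others as genes of G2 and mitosis. High motif shares therefore describe that choice of genes and are not a result of the comparison. RefSeq promoters on GRCm38.p6, 300 bases around each gene's start, were at hand for 45 of the 54 genes, in 50 windows, since 5 genes have more than 1 start. Motifs were searched on both strands, and hits may overlap each other. The E2F motif (TTTCCCGC, TTTGGCGC, TTTCGCGC or TTTGCCGC) stood in 10 of 27 replication windows (37.0%) and in 1 of 23 mitosis windows (4.35%), against 2.26% of all 32851 windows. The cell cycle homology region, CHR (TTTGAA or TTCGAA), stood in 18 of 23 mitosis windows (78.3%) and in 6 of 27 replication windows (22.2%), against 19.2% of all. The CCAAT box (CCAAT) was frequent in both classes, at 87.0% of mitosis and 70.4% of replication windows, against 37.4%.

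Stretches of 5 promoters are shown from 170 bases before the start to 30 after it, in the 5′ to 3′ direction of the gene, with motif letters in capitals. Mcm6, a subunit of the replicative helicase (chr1:128359676-128359875, minus strand), is shown for its 3 E2F matches (the first 2 overlap), and Cdk1 (chr10:69352883-69353082, minus strand), the kinase of mitotic entry, because it was the 1 mitosis gene with an E2F match and also has CHR and CCAAT matches. Ccnb2 (chr9:70421525-70421724, minus strand) and Bub1 (chr2:127831830-127832029, minus strand) show the common mitotic layout of CCAAT boxes with a CHR near the start. Nek2 (chr1:191821303-191821502, plus strand), the gene that rose, has CCAAT matches and neither of the other motifs in its window.
Mcm6: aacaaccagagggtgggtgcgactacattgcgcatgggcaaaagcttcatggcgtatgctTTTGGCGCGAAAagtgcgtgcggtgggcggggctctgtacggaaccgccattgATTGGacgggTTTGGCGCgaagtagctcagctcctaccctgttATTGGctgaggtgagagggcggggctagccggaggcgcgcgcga
Cdk1: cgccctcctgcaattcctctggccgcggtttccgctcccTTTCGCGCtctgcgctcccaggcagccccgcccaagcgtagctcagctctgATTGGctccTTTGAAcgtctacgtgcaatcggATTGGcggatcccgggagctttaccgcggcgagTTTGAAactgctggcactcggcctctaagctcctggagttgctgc
Ccnb2: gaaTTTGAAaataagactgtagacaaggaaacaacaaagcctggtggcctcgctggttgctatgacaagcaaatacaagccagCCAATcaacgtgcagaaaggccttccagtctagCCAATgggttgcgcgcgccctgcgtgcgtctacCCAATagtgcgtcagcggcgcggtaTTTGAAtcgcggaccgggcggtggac
Bub1: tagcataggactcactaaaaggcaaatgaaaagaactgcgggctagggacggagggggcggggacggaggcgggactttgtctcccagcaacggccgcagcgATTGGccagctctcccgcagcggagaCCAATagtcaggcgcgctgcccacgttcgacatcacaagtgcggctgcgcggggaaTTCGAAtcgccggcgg
Nek2: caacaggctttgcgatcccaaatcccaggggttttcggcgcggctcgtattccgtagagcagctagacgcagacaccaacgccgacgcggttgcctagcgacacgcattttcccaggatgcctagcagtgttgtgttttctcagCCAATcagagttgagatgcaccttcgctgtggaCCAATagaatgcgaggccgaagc

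The log2 changes were then set beside the motifs. The 10 measured replication genes with an E2F match had a median log2 change of -0.01 and the 13 without one -0.05. The 17 mitosis genes with a CHR match had a median of -0.02, from -0.26 for Bub1 to 0.09 for Aurka, and the 5 without one had 0.02. None of the 10 replication genes with an E2F match and none of the 17 mitosis genes with a CHR match passed the threshold by limma. Over all measured genes, 13 of 543 with an E2F match and 113 of 2974 with a CHR match passed. With so few members, a count of 0 does not set them apart from those shares.

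The G1/S regulators open the replication program, and 0 of 7 passed the threshold in either direction (0 also at an unadjusted p under 0.05). Ccne1, cyclin E1, was measured at 684, 689 and 667 in the pMIG samples and 850, 749 and 690 with Blnk. The Blnk samples were all higher than the pMIG samples, but Blnk sample 3 by a single unit of intensity, and the log2 change was 0.16 (SE 0.0883; limma adjusted p = 0.460). Without Blnk sample 1 it was 0.0804. E2f1, the activator that drives the S-phase genes, stood at 345, 345 and 356 and at 332, 328 and 313, lower in every Blnk sample (log2 -0.10, SE 0.0647; adjusted p = 0.523). E2f2, a second activator, stood at 413, 396 and 414 against 425, 439 and 418, higher in every Blnk sample (log2 0.07; adjusted p = 0.706). The remaining 4, cyclin E2 (Ccne2), its kinase Cdk2, the phosphatase Cdc25a and the repressor E2f8, lay between -0.10 and 0.04.

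Among the 8 genes of origin licensing and the MCM helicase, Cdt1 stood apart from the others in the size of its change. Cdt1 loads the helicase onto origins, and its protein is held to G1 in cycling cells. Its intensity (probe 10576140) was 1089, 1039 and 1032 with pMIG and 890, 828 and 864 with Blnk, so the groups were well separated. The log2 change was -0.29 (SE 0.0671; 95% interval -0.45 to -0.14), and it missed the threshold (limma adjusted p = 0.0638). It passed when quantile normalization was repeated (adjusted p = 0.0362) and with dim genes left out (0.0197), array weights (0.0494), an intensity trend in the variance prior (0.00752) or 16 added before log2 (0.0211). Cdt1 missed with replicate number added to the fit (0.196) and with arrays centred on their medians (0.0512). It also missed with any 1 array left out (0.103 to 0.178).

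The 6 subunits of the MCM helicase that Cdt1 loads had log2 changes between -0.09 (Mcm3) and 0.06 (Mcm6), with limma adjusted p from 0.692 to 0.900. Mcm2 was measured at 1816, 1895 and 1796 with pMIG and 2101, 1840 and 1791 with Blnk. Blnk sample 1 was the highest of all and the other Blnk samples lay among or below the controls. Cdc6, which loads the helicase together with Cdt1, stood at 389, 381 and 330 and at 415, 391 and 330, and the groups overlapped (log2 0.04; adjusted p = 0.903).

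Of the 4 genes that activate the helicase, 3 had a negative log2 change, 2 of them at an unadjusted p under 0.05, and none passed the threshold. Mcm10, which helps the loaded helicase to fire, was at 697, 712 and 669 in the pMIG samples and 666, 543 and 574 with Blnk (log2 -0.23, SE 0.0900; limma adjusted p = 0.287). Blnk sample 1 was 3 units of intensity under the lowest control, and the other Blnk samples were far lower. Gins2, a subunit of the GINS complex, stood at 536, 521 and 488 against 454, 423 and 463, with no overlap (log2 -0.21; adjusted p = 0.228). Its partner Gins1 (-0.08) and the helicase cofactor Cdc45 (0.06) overlapped between groups.

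Of the 4 genes of the fork and of new chromatin, 2 had a positive and 2 a negative log2 change, and none passed. Fen1, the nuclease that trims Okazaki fragments, was measured at 545, 557 and 546 in the pMIG samples and 762, 620 and 600 with Blnk. All Blnk samples were higher, Blnk sample 1 by far the most, and the log2 change of 0.26 (SE 0.0991) had a limma adjusted p of 0.268. Without Blnk sample 1 it was 0.15. Pcna, the sliding clamp of the polymerase, was bright at 4260, 4368 and 4279 and at 4864, 4290 and 4386 (log2 0.07; adjusted p = 0.751). Without Blnk sample 1 its log2 change was 0.0119. A second Pcna probe gave nearly the same values and a log2 change of 0.07. Chaf1a, a histone chaperone of the fork, was lower in every Blnk sample (log2 -0.15; adjusted p = 0.519), and Uhrf1, which maintains DNA methylation, overlapped (-0.04).

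In nucleotide synthesis all 4 genes had a negative log2 change and 0 passed the threshold by limma. Tk1 (probe 10393431) stood at 1084, 873 and 929 in the pMIG samples and 812, 754 and 759 with Blnk, lower in every Blnk sample (log2 -0.31, SE 0.0938; adjusted p = 0.157). A second Tk1 probe (10582809) gave 869, 831 and 861 against 932, 753 and 777. There Blnk sample 1 was the highest of the 6 and the log2 change was -0.06, so the size of the Tk1 difference depends on the probe. Rrm2, the regulated subunit of ribonucleotide reductase, was nearly constant in the controls at 2167, 2162 and 2147 and spread over 2349, 1901 and 2038 with Blnk (log2 -0.05; adjusted p = 0.866). Rrm1 (-0.07) and Tyms, thymidylate synthase (-0.04), also overlapped.

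Of the 4 measured mitotic cyclins and regulators, 3 had a negative log2 change and none passed the threshold. Ccnb2, cyclin B2, was measured at 2350, 2145 and 2339 in the pMIG samples and 1998, 1847 and 2079 with Blnk, with no overlap (log2 -0.21, SE 0.0773; limma adjusted p = 0.254). Foxm1, the transcription factor of the G2 program, stood at 926, 966 and 972 and at 835, 875 and 870, again with no overlap (log2 -0.15, SE 0.0649; adjusted p = 0.328). Cdk1 went the other way, at 1556, 1551 and 1468 against 1711, 1601 and 1568, higher in every Blnk sample (log2 0.09; adjusted p = 0.613). Its log2 change was 0.0302 with quantile normalization repeated and 0.0557 without Blnk sample 1. Ccna2, cyclin A2, had a log2 change of -0.0047 with a 95% interval from -0.16 to 0.15.

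Among the 5 mitotic kinases, Nek2 rose and the others did not pass. Nek2 (probe 10352767) was measured at 1186, 1192 and 1186 in the pMIG samples and 1419, 1533 and 1528 with Blnk, so that every Blnk sample was well above controls that barely differed. It rose by 25.6% (log2 0.33, SE 0.0664; limma adjusted p = 0.0392). With any 1 array left out the log2 change stayed between 0.31 and 0.37, and the adjusted p, at 0.0531 (without Blnk 1) to 0.147 (without pMIG 3), missed the threshold. Nek2 also missed it when quantile normalization was repeated (log2 0.27, adjusted p = 0.102) and with arrays centred on their medians (0.29, adjusted p = 0.0784). It passed with dim genes left out (0.0105), array weights (0.0246), an intensity trend in the variance prior (0.00243) or 16 added before log2 (0.0114).

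The other kinases had changes of either sign. Ttk, the checkpoint kinase MPS1, stood at 599, 674 and 689 in the pMIG samples and 609, 562 and 507 with Blnk, and overlapped through pMIG sample 1 (log2 -0.23; limma adjusted p = 0.306). Plk1, which drives entry and cytokinesis, stood at 1476, 1413 and 1454 and at 1548, 1468 and 1550, and the groups overlapped (log2 0.07; adjusted p = 0.688). Aurka, the centrosomal Aurora kinase, stood at 817, 791 and 786 and at 876, 798 and 882, also with overlap (log2 0.09; adjusted p = 0.617), and Aurkb, its chromosomal relative, at a log2 change of -0.07.

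The spindle checkpoint and the anaphase-promoting complex were represented by 6 genes, of which 0 passed. Bub1, the checkpoint kinase of the kinetochore, was measured at 1169, 1318 and 1330 in the pMIG samples and 1134, 1002 and 1051 with Blnk. Every Blnk sample was lower, but Blnk sample 1 was close to pMIG sample 1, and the log2 change of -0.26 (SE 0.0836) had a limma adjusted p of 0.179. Its relative Bub1b (-0.03), Mad2l1, the MAD2 inhibitor (0.05), Cdc20, the target of that inhibitor (0.06), Ube2c, the ubiquitin-conjugating enzyme of anaphase (0.03), and survivin, Birc5 (-0.06), all overlapped between groups.

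None of the 12 motor, spindle and chromosome genes passed the threshold, and none had an unadjusted p under 0.05. The 7 motor and spindle genes ran from -0.15 for the kinesin Kif11 to 0.04 for Prc1, which bundles the midzone, and Kif23 and Kif11 were lower in every Blnk sample, Kif11 by a single unit of intensity in Blnk sample 1. Mki67, which codes for the proliferation antigen Ki-67, stood at 1847, 1945 and 1907 in the pMIG samples and 1952, 1993 and 1676 with Blnk (log2 -0.02; limma adjusted p = 0.938). Top2a, the topoisomerase that untangles chromosomes, stood at 2848, 3237 and 3154 and at 3209, 3032 and 2904 (log2 -0.01; adjusted p = 0.967). Both genes overlapped between groups, as did the centromere genes Cenpa (0.03), Cenpe (-0.12) and Cenpf (-0.06). A second, dim Top2a probe, at 43 to 65, gave a log2 change of 0.0038.

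**Figure D2:**
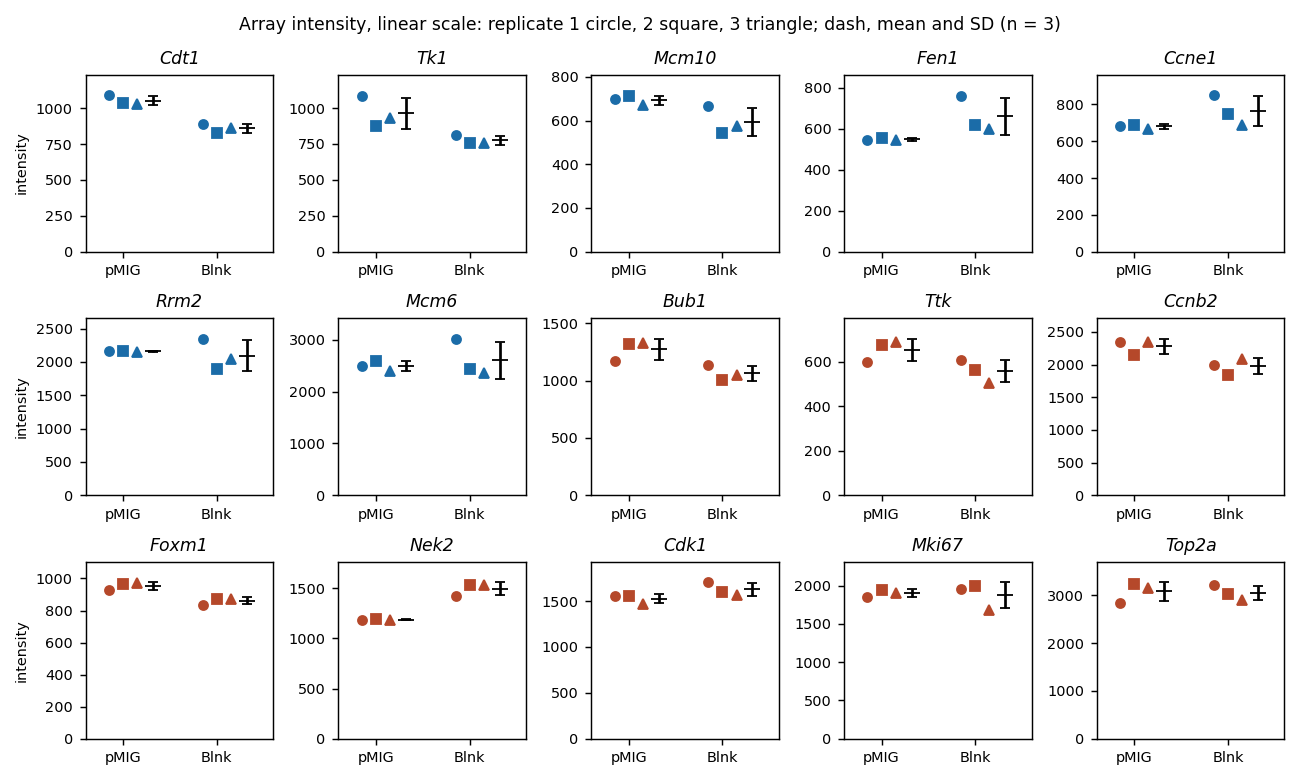
Array intensity (linear scale, axes from 0) of 15 of the genes in the 3 pMIG and 3 Blnk samples, with replicate numbers as symbols and the mean and SD (n = 3) as a dash with bars; blue marks replication and red mitosis genes. Nek2 lies higher and Cdt1 lower in every Blnk sample, Rrm2 and Mcm6 spread in the Blnk samples with replicate 1 on top, and Mki67 and Top2a overlap.

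Array by array, the Blnk samples did not lie at 1 level for the replication genes. For each array, the log2 intensity of each gene minus the gene's mean over the pMIG arrays was averaged over a class. The replication genes stood at -0.00052, 0.02 and -0.02 on the pMIG arrays and at 0.09, -0.10 and -0.11 on the Blnk arrays. Blnk sample 1 was thus above every control and the other Blnk samples below every control; with quantile normalization repeated, Blnk sample 1 (0.02) lay among the controls. Blnk sample 1 exceeded the mean of the other Blnk samples by 0.19 on the log2 scale, where all genes together differed by 0.0019.

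The mitosis genes stood at -0.04, 0.03 and 0.0036 on the pMIG arrays and at 0.03, -0.07 and -0.05 on the Blnk arrays. Here Blnk sample 1 lay within the range of the controls (below it, at -0.06, with quantile normalization repeated) and exceeded the other Blnk samples by 0.09 on average. With quantile normalization repeated the gap was 0.15 for replication and 0.04 for mitosis genes, and with arrays centred on their medians 0.20 and 0.10. The same-array difference between the classes, mitosis minus replication, was -0.06 in Blnk sample 1 and 0.02 and 0.05 in the others, and from -0.04 to 0.02 in the pMIG samples.

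Counts of genes put these means in other terms. Blnk sample 1 was singled out after these same values were seen, so the counts restate the means and are no separate support. Blnk sample 1 was the highest of the 6 arrays for 17 of 27 replication genes (63.0%) and 8 of 27 mitosis genes (29.6%), against 19.2% of all genes. It was the highest of the 3 Blnk arrays for 23 of 27 replication genes (85.2%), all 8 licensing and MCM genes among them, and for 17 of 27 mitosis genes (63.0%), against 33.6% of all genes. The SD of log2 intensity was wider among Blnk than among pMIG samples for 22 replication and 19 mitosis genes, and for 50.6% of all genes. Its median was 0.05 in pMIG and 0.13 in Blnk samples for replication genes, 0.05 and 0.09 for mitosis genes, and 0.10 in both groups for all genes. Blnk sample 1 also had the lowest Blnk intensity of its group, at 2714; the part of that difference in these values was not tested.

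**Figure D3:**
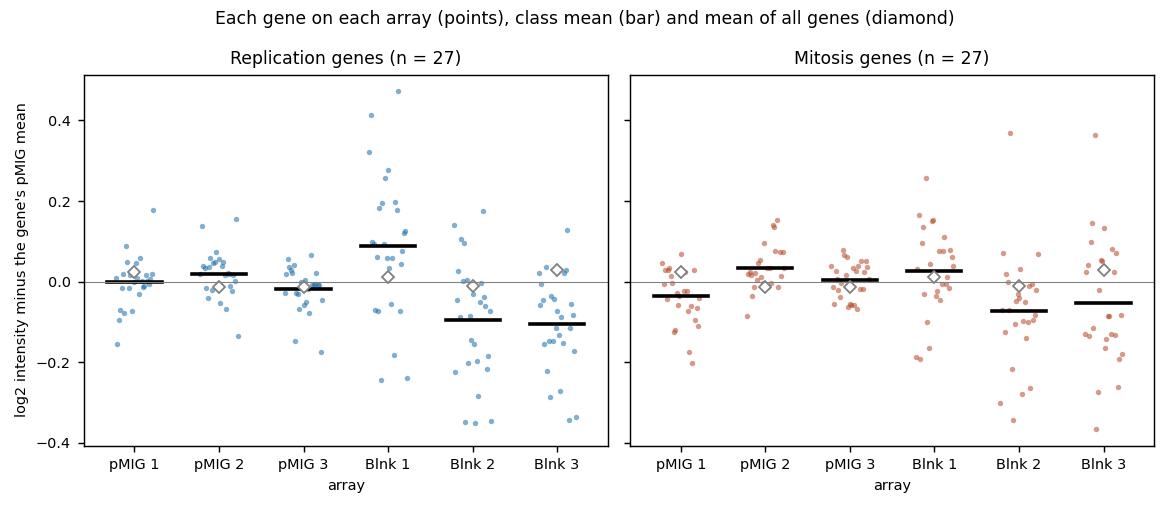
Log2 intensity of each gene minus its mean over the 3 pMIG arrays, by array, for 27 replication and 27 mitosis genes (points), with the class mean (bar) and the mean over all 19938 genes (diamond). The replication bar lies at 0.09 for Blnk 1 and at -0.10 and -0.11 for Blnk 2 and Blnk 3; taking deviations from the pMIG mean narrows the pMIG points by construction.

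The size of the average change therefore moved with the Blnk sample left out. Without Blnk 1 the median log2 change was -0.12 for the replication and -0.06 for the mitosis genes, and 23 and 18 of the 27 in each class had a negative log2 change, compared with 15 and 17 in the full data. Of all 19938 genes, 10055 had a negative log2 change without Blnk 1 and 10051 in the full data. Without Blnk 2 the replication median was 0.01, and without Blnk 3 it was -0.0087. The mitosis median was -0.01 in both of these cases. In none of the 6 fits with 1 array left out did any of the 54 genes pass the threshold by limma. The medians of the classes differed by 0.02 (mitosis minus replication), and that difference ran from -0.02 without Blnk 2 to 0.06 without Blnk 1, so neither class was lower than the other in every fit.

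Other genes of the cell cycle were read from lists outside the 55. Among 42 further replication genes, 0 rose and 0 fell by limma (at an unadjusted p under 0.05, 2 were higher and 4 lower, against 8.91% and 6.32% of all genes), and their median log2 change was -0.03. Their class mean was 0.08, -0.09 and -0.11 on Blnk arrays 1, 2 and 3, and Blnk sample 1 was the highest Blnk array for 37 of 42. Among 40 further mitosis genes, 0 rose and 0 fell by limma (at an unadjusted p under 0.05, 0 were higher and 9 lower, against 8.91% and 6.32% of all genes). Their median log2 change was -0.10, and 35 of 40 had a negative log2 change, against 50.4% of all genes. Their class mean was -0.06, 0.05 and 0.01 on the pMIG arrays and -0.05, -0.13 and -0.16 on the Blnk arrays. Blnk sample 1 thus lay among the controls. All genes share the same 6 arrays, so such counts are not independent changes. The 15 genes of spindle assembly and cytokinesis among the 40 all had a negative log2 change, with a median of -0.16. Their class mean was -0.12, -0.17 and -0.22 on the Blnk arrays, below every control. The 6 condensin and cohesin genes were also all negative, with a median of -0.10, but their mean on Blnk array 1 (0.0026) lay among the controls. Of the other roles, 6 of 8 genes of entry and exit (median -0.07) and 8 of 11 kinetochore and passenger genes (median -0.05) had a negative log2 change. In the spindle and cytokinesis group Ect2, the exchange factor that places the cleavage furrow, stood at 982, 1035 and 1006 in the pMIG samples and 856, 800 and 798 with Blnk (log2 -0.30, SE 0.0674; adjusted p = 0.0586). Ect2 passed when quantile normalization was repeated (0.0239) and with dim genes left out (0.0175), array weights (0.0344), an intensity trend in the variance prior (0.00669) or 16 added before log2 (0.0188). Ect2 missed the threshold with replicate number added to the fit (0.214) and with arrays centred on their medians (0.0530). It also missed with any 1 array left out (0.0795 to 0.184). Ect2 was singled out after its value was seen as the lowest adjusted p of these 40 genes.

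Of the regulators upstream in G1, Ccnd2 and Cdkn2d rose. Of 26 further G1, E2F and DREAM genes, 2 rose and 0 fell by limma (2.51% of all genes rose and 1.1% fell), and at an unadjusted p under 0.05 4 were higher and 5 lower (8.91% and 6.32% of all genes), with a median of 0.0074. Ccnd2, a D cyclin that responds to growth signals, was measured at 5791, 5766 and 5751 in the pMIG samples and 7336, 7128 and 7004 with Blnk (log2 0.31, SE 0.0626; adjusted p = 0.0392). Cdkn2d, an inhibitor of the kinases that D cyclins activate, stood at 518, 479 and 490 and at 612, 635 and 709 (log2 0.39, SE 0.0801; adjusted p = 0.0403). Both were higher in every Blnk sample, and both missed the threshold with any 1 array left out, with quantile normalization repeated (0.0502 and 0.0824) and with arrays centred on their medians (0.0904 and 0.0539). Both passed with dim genes left out (0.0108 and 0.0104) and with array weights (0.0267 and 0.0221). They also passed with an intensity trend in the variance prior (0.00039 and 0.00638) or 16 added before log2 (0.0102 and 0.0142).

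The remaining measured D cyclins and inhibitors did not pass. Ccnd3, the D cyclin on which pre-B cells depend, stood at 1570, 1459 and 1435 and at 1222, 1190 and 1267 (log2 -0.28; limma adjusted p = 0.0870), and its kinase Cdk6 at 3236, 3330 and 3330 and at 2865, 2701 and 2508 (log2 -0.30; adjusted p = 0.0842). Both were lower in every Blnk sample. The second D-cyclin kinase Cdk4 had a log2 change of -0.02 and Ccnd1, dim at 65 to 98, of -0.25. Of 7 inhibitors listed, 6 were measured, and Cdkn1a was not among the 6. Cdkn2a was higher in every Blnk sample (log2 0.38, adjusted p = 0.0710). Cdkn1b (0.02), Cdkn1c (-0.06), Cdkn2b (-0.00085) and Cdkn2c (-0.07) overlapped between groups.

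**Figure D4:**
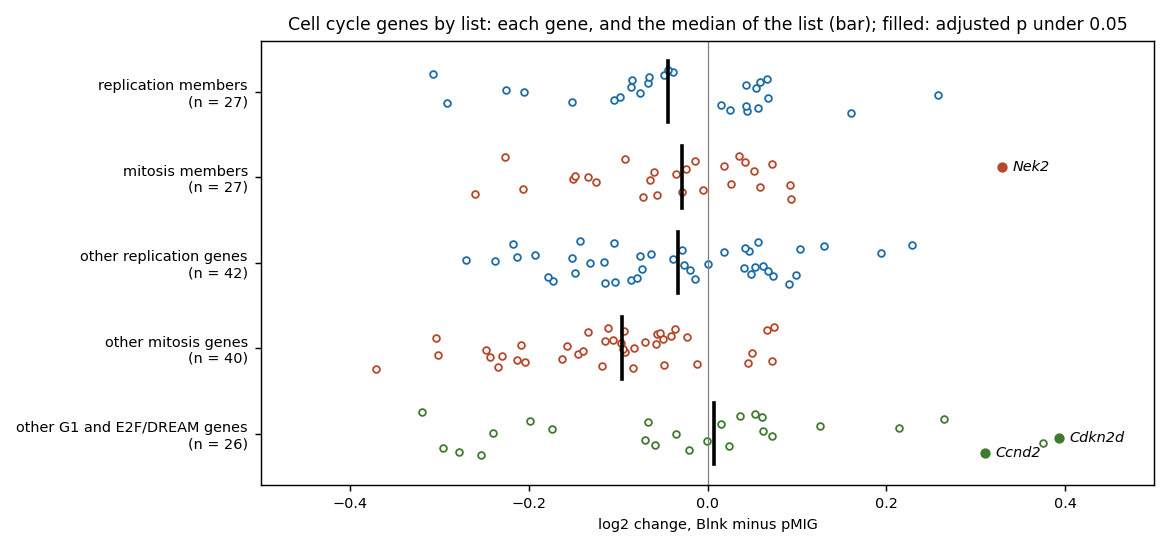
Log2 change (Blnk minus pMIG) of every measured gene of 5 lists, with the list's median as a bar and filled points for an adjusted p under 0.05. Nek2, Ccnd2 and Cdkn2d are the filled points, and the medians lie between -0.10 (further mitosis genes) and 0.0074 (further G1, E2F and DREAM genes).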

How the data were processed

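The authors deposited 1 table of intensities for 6 arrays as whole numbers on a linear scale, per the submitters' processing notes made with RMA, whose version they do not give. Log2 was taken with nothing added, in place of the log2 values the design had allowed for. Of 35421 probes, 21789 had 1 gene symbol in the platform annotation, 1621 had several and 12011 were not listed; only single-symbol probes were used, the brightest per gene, which gave 19938 genes. Of the 111 further cell cycle genes listed, 108 were measured, 2 entries of all lists through a synonym.

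Groups and replicate numbers came from the sample titles. The 3 Blnk samples were set against the 3 pMIG samples in limma 3.58.1 under R 4.3.3 (lmFit, eBayes), group as the only term, Benjamini-Hochberg over all genes, two-sided, threshold 0.05; changes are mean log2 differences with limma's SE or 95% interval. The fit was tested on simulated data. Class means and motif shares are descriptions without a test. The members and lists were chosen with earlier results of these data known. The rule for genes given sample by sample named genes past the threshold, the 3 highest and 3 lowest changes of each class, 12 fixed genes (11 measured), and, of the other lists, called genes, D cyclins and CDK inhibitors; Gins2, Cdk6 and Ect2 were added after their values were seen. The number of arrays limits the precision. Alternatives covered the replicate block, scaling, the filter on dim genes, array weights, the variance prior, the choice of probe, 16 added before log2 and each array left out.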

Additional observations from a re-analysis of the deposited data

How the results depend on the processing

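Over all genes 720 passed, 69.4% of them higher with Blnk; 55.7% of 738 were higher with quantile normalization repeated and 58.9% of 708 with arrays centred on their medians. The count was 1228 with dim genes left out, 1313 with an intensity trend in the variance prior, 1100 with 16 added before log2, and 267 to 437 with 1 array left out, which weakens the test by construction. Replication genes called went from 0 to 1 (Cdt1) with quantile normalization, without dim genes, with array weights and with 16 added, and to 2 (Cdt1 and Tk1) with the trend. Mitosis genes called went from 1 (Nek2) to 0 with quantile normalization, with centred arrays and with any 1 array left out (0 to 0), and to 2 (Nek2 and Bub1) with the trend. The mitosis median was -0.0862 with quantile normalization, and the mitosis gap between Blnk 1 and the other Blnk arrays, an alternative added after the data were seen, was then 0.0397.

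Of 21 genes followed through 14 alternatives (294 values), 269 kept direction and side of the threshold, 7 newly passed, 9 no longer passed (all Nek2) and 9 changed sign. Those that changed sign were near 0: Mcm2 was at -0.0025 with quantile normalization, and with 1 array left out Mcm2 ran from -0.0157 to 0.10, Cdc6 from -0.0305 to 0.14, Rrm2 from -0.13 to 0.0195, Top2a from -0.0691 to 0.0232 and Mki67 from -0.0704 to 0.0545. The causes were not tested.

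Deviations from the group means, over all genes, correlated at -0.19, 0.06 and -0.12 between same-numbered samples 1, 2 and 3. Between samples of unlike number the correlations ran from -0.21 to 0.28. Deviations from means of 3 samples cannot settle whether the numbers pair the samples, and the labels do not say. With the replicate block 289 genes passed, with 0 replication and 0 mitosis genes among them, and Nek2 stood at 0.33 with an adjusted p of 0.161; Ccnd2 (adjusted p = 0.170) and Cdkn2d (0.158) missed the threshold too.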
